A study of Mus musculus with 3 samples.

Results

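Levels of 10 marker genes of crypt base stem cells were measured in small intestinal organoids of 3 genotypes. The genes were Lgr5, Ascl2, Olfm4, Smoc2, Tnfrsf19, Mex3a, Prom1, Rgmb, Slc12a2 and Igfbp4, chosen by symbol with earlier results of these data known. All 10 were found among the 32285 genes of the files. They were read in 1208 of 11411 WT barcodes, 2161 of 10706 LApc barcodes and 1931 of 12068 LApcL barcodes. These barcodes had at least 10000 unique molecular identifiers (UMIs, each tagging 1 captured RNA molecule), at most 20% of UMIs from mitochondrial genes, and occurred in 1 library only. Each barcode stands for the contents of a single droplet, in most cases a cell.

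The organoids came from C57BL/6 mice aged 7 to 8 weeks that all received tamoxifen (2 doses, 2 mg), and were taken at passage 3 on day 6 of culture. LApc organoids carried Lgr5-CreERT2;Apc fl/fl and LApcL organoids carried Lef1 fl/fl in addition. The WT organoids were labelled only as WT. For another experiment the study describes its WT mice as carrying the Cre, and for these organoids it was not given. The days after tamoxifen were given as 21 for WT and LApcL but 29 for LApc, and this difference cannot be told apart from the genotype. The Cre was driven from the Lgr5 gene, as an Lgr5-EGFP-IRES-CreERT2 insertion per the study's methods, so that recombination begins in the very cells these markers name and Lgr5 itself is the altered locus. The effect of that insertion on counted Lgr5 transcripts was not tested. The cells were described as sorted, with no gate given. Each genotype had 1 library, so no test between genotypes was possible, no p-value is given, and 95% intervals (in brackets) cover counting error only.

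The crypt base columnar cell is the dividing stem cell of the intestinal epithelium, wedged between Paneth cells at the bottom of the crypt. It is kept by Wnt signals, which spare beta-catenin from the Apc-containing destruction complex and let it act on DNA through TCF and LEF factors, of which Lef1 is one. Loss of Apc leaves that pathway switched on without ligand. The 10 markers differ in their function: Lgr5 is the receptor for R-spondins that raises the Wnt response, Ascl2 is a transcription factor that maintains the stem cell state, and Olfm4 is a secreted glycoprotein that depends on Notch signals. Smoc2 and Igfbp4 are secreted matrix and growth factor binding proteins, Tnfrsf19 (Troy) is a receptor of the tumor necrosis factor family, and Rgmb is a co-receptor for bone morphogenetic proteins. Prom1 (CD133) is a membrane protein of cell protrusions, Slc12a2 is a sodium, potassium and chloride cotransporter, and Mex3a is an RNA-binding protein.

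Promoter windows are shown for the pair of genes with the highest ratios of LApc to WT and for Olfm4, the gene with the lowest ratios of LApc and LApcL to WT. The windows are from RefSeq (GRCm38.p6), span 300 bases around an annotated gene start, most of them upstream, and are written 5′ to 3′ on the strand of the gene. Capitals mark a match to CTTTGA or CTTTGT on either strand, the core letters that TCF and LEF factors bind. The Ascl2 window lies at chr7:142969215-142969514 (minus strand), the Tnfrsf19 window at chr14:61037938-61038237 (minus strand, 1 of 2 starts) and the Olfm4 window at chr14:80000052-80000351 (plus strand).
Ascl2: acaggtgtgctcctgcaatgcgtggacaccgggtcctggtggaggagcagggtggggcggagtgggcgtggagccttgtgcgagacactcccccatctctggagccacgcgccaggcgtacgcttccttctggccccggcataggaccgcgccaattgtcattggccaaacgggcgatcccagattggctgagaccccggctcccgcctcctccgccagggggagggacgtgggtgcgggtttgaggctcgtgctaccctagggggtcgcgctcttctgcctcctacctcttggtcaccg
Tnfrsf19: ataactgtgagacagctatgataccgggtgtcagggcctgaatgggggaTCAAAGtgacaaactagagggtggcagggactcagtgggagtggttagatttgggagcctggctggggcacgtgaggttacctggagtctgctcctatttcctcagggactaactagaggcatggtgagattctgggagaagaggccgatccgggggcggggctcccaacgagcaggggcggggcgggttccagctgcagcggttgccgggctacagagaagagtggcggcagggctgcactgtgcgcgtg
Olfm4: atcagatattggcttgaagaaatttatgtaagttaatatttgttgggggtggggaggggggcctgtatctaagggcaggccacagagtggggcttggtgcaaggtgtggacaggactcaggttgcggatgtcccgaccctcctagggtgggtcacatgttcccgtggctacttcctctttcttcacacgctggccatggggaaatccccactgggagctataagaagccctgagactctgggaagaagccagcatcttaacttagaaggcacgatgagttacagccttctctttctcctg
Of these windows that of Tnfrsf19 held a match, CTTTGA read on the opposite strand and beginning at base 50, and was shown for it. The other Tnfrsf19 window, at chr14:61046806-61047105, held 0. RefSeq windows were at hand for 7 of the 10 genes, not for Lgr5, Smoc2 and Slc12a2. A match stood in 3 of the 7 genes (42.9%), namely Tnfrsf19, Prom1 and Rgmb, against 34.5% of all 27025 genes with a window. By window the order was the reverse, with 3 of 11 windows of these genes (27.3%) against 31.2% of all 32851. A match is a description of letters, not of binding.

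Barcodes rich in enterocyte RNA were found in WT and in neither Apc-targeted library. Of the WT barcodes, 872 (72.2%) had at least 0.5% of their UMIs from 10 enterocyte markers such as Fabp1 and Apoa1, against 0 of 2161 in LApc and 0 of 1931 in LApcL, which allows shares of up to 0.139% and 0.155% (3 counts of the total). Of the WT barcodes, 293 lay within a factor of 2 of that limit. The enterocyte list summed to 21916 CPM (UMIs of a gene per 1e6 UMIs of the library) in WT, 13.6 in LApc and 15.7 in LApcL, with no member at 0. In what follows the 336 remaining WT barcodes are called marker-low WT, and the markers' ratios to WT are summarized against all WT barcodes and against these. In bulk sums of this kind, fewer cells of a type and less RNA per cell cannot be told apart. The epithelial list (Epcam, Cdh1, Krt8, Krt18 and Vil1) summed to 3049, 5654 and 6094 CPM, so the cells were epithelial in each library. The Paneth list summed to 235, 1699 and 3963 CPM, the goblet list to 1055, 236 and 436, the enteroendocrine list to 1546, 13.4 and 2.38, and the tuft list to 1.72, 14.7 and 1.78. Such sums can rest on single genes, as Itln1 gave 146 CPM of the Paneth list in WT and Avil 13.8 of the tuft list in LApc. From LApc to LApcL Defa24 went from 327 to 1825 CPM. Lyz1 went down from 317 to 218 and Itln1 from 141 to 83.7, and the other Paneth genes went up. The fibroblast list summed to 16.3, 893 and 289 CPM, of which Vim gave 892 in LApc, and the immune list to at most 0.627 CPM in any library. Without barcodes marker-high for enterocytes, goblet or Paneth cells (301, 2088 and 1837 remained), Lgr5 stood at 41.0, 34.7 and 90.9 CPM and Ascl2 at 3.54, 66.2 and 101 CPM in WT, LApc and LApcL. The part of the enteroendocrine, tuft and fibroblast lists in the results below was not tested. Median depth was 38074, 34377 and 32584 UMIs and the median mitochondrial share was 10.5%, 5.64% and 6.39% in WT, LApc and LApcL. The targeted genes gave no check of the labels. Apc stood at 20.0, 88.5 and 95.4 CPM, and Lef1 at 0.961, 72.0 and 47.8 CPM, but a 3′ tag checks a deletion only where it lies in the deleted exons, which was not tested here.

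In LApc organoids 6 of the 10 markers were at least 2-fold higher than in WT and 1, Olfm4, was at least 2-fold lower. Over the 10748 genes with at least 5 CPM in either library, 24.5% were at least 2-fold higher and 9.82% at least 2-fold lower. The median log2 ratio of CPM + 1 was 1.52 over the 10 markers and 0.50 over all genes tested. At a 1.5-fold limit 2 markers, Olfm4 and Rgmb, were lower (background 14.8%). In LApcL 8 of 10 were at least 2-fold higher than in WT (background 27.1%) and Olfm4 was lower (10.6%), with a median of 2.57 against 0.52. From LApc to LApcL, 9 markers passed 5 CPM and 8 of them stood higher, where 56.5% of all genes did. Of these only Lgr5 reached 2-fold (background 1.49%), and none was 2-fold lower (3.75%). At a 1.5-fold limit 7 of the 9 were higher, where 5.96% of all genes were, and 0 lower (7.05%). Ascl2 passed this limit narrowly, at 1.52-fold [1.47 to 1.57]. It fell below with LApc barcodes that held Npy UMIs left out (log2 ratio 0.49), and Rgmb fell below with a pseudocount of 10 CPM (0.53). None of the 9 reached 3-fold higher (0.481%). The median of the 10 markers was 0.72 and that of all genes was 0.042. Because the markers were chosen with earlier results of these data known, these counts describe the list and test nothing.

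**Figure D1:**
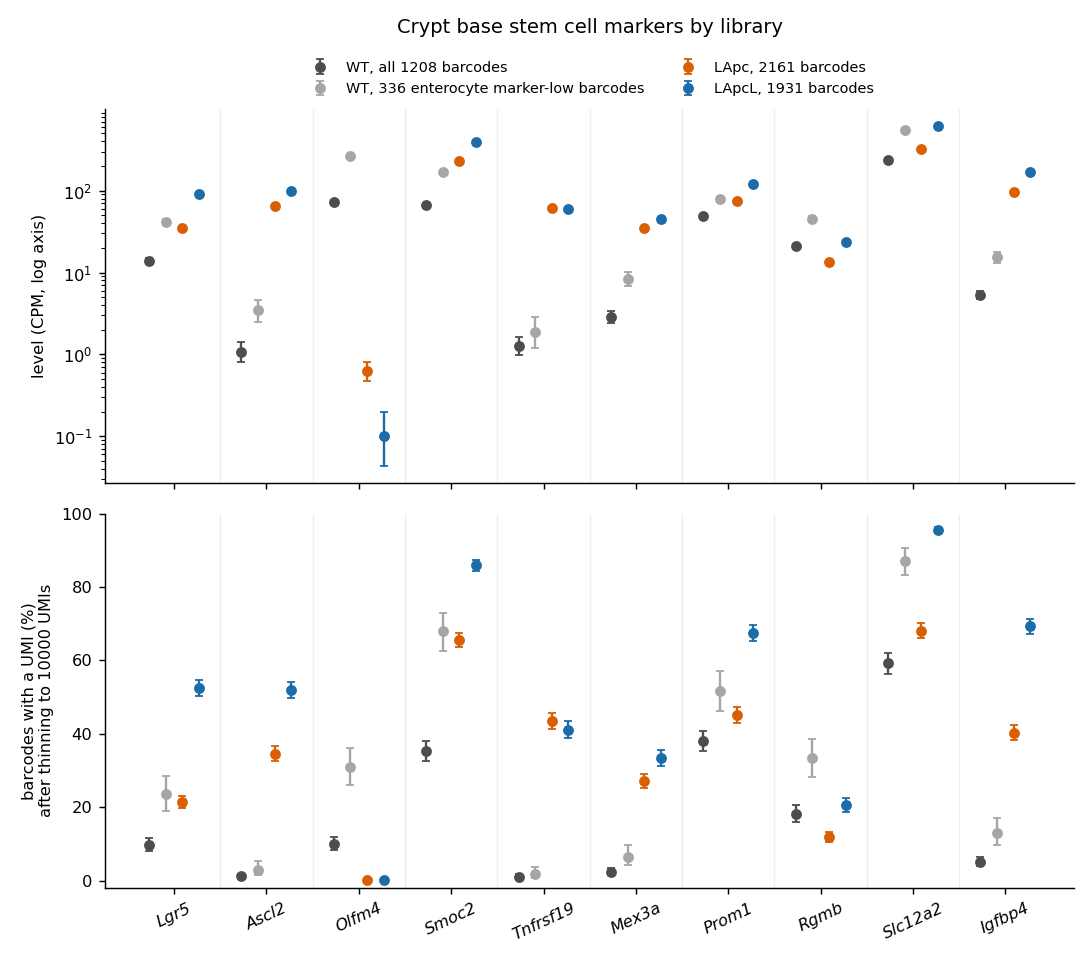
The upper panel plots the CPM of each marker on a log axis and the lower panel the percent of barcodes with at least 1 UMI after thinning to 10000 UMIs, for all WT, marker-low WT, LApc and LApcL barcodes, with 95% counting intervals. Ascl2 goes from 1.08 CPM in WT to 98.7 CPM in LApcL, while Olfm4 goes from 72.1 to 0.0994 CPM.

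Lgr5, the gene that defines these cells and lies at chr10:115450311-115587780 (mm10, minus strand), was lowest in WT and highest in LApcL. Its level was 13.9 CPM [12.9 to 15.0] in WT, 34.7 [33.5 to 36.0] in LApc and 90.0 [87.9 to 92.1] in LApcL. To compare shares of positive barcodes at equal depth, every barcode was thinned at random to 10000 UMIs. Lgr5 was then detected in 9.69%, 21.4% and 52.5% of barcodes. The intervals of the 3 libraries did not overlap on either scale, and LApcL was 2.59-fold above LApc [2.48 to 2.70]. Dividing cells were more frequent in LApcL, where 43.1% of barcodes had a Mki67 UMI against 25.5% in LApc. The difference was present in both fractions: Lgr5 stood at 82.9 against 35.7 CPM in Mki67-positive and at 98.2 against 34.3 CPM in Mki67-negative barcodes. It was also present in each depth range, at 121 against 30.7 CPM from 10000 to 20000 UMIs and at 76.6 against 34.1 CPM from 40000 UMIs. Against WT the answer depended on which cells stood for WT. The log2 ratio of LApc to WT was 1.26 [1.14 to 1.37] over all kept barcodes and 0.90, under 2-fold, with a 10% mitochondrial limit. In marker-low WT, Lgr5 reached 41.4 CPM [37.9 to 45.2], so that LApc was 0.838-fold of it [0.763 to 0.923] while LApcL was still 2.17-fold above [1.98 to 2.38].

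Ascl2 and Tnfrsf19 had the highest ratios of LApc to WT among the 10 markers. Ascl2 (chr7:142966829-142969264) was counted 53 times in all WT barcodes, or 1.08 CPM [0.812 to 1.42]. It stood at 65.1 CPM [63.5 to 66.8] in LApc and 98.7 [96.6 to 101] in LApcL, with positive shares of 1.16%, 34.6% and 51.9%. Tnfrsf19 (chr14:60963875-61046490) was counted 62 times in WT, or 1.27 CPM [0.972 to 1.63], and stood at 61.6 CPM [60.0 to 63.3] in LApc and 59.3 [57.6 to 61.0] in LApcL. Both were low in marker-low WT as well, at 3.45 and 1.89 CPM. LApc was thus 18.9-fold above marker-low WT for Ascl2 [14.0 to 26.2] and 32.7-fold for Tnfrsf19 [21.7 to 51.6]. Between LApc and LApcL the pair parted. Ascl2 was 1.52-fold higher in LApcL [1.47 to 1.57], whereas Tnfrsf19 was 0.961-fold of LApc [0.925 to 0.999], and its positive shares of 43.5% [41.3 to 45.6] and 41.1% [38.9 to 43.4] overlapped.

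Olfm4 (chr14:79984081-80023139) went the opposite way. It stood at 72.1 CPM [69.7 to 74.5] in WT, 0.627 [0.475 to 0.813] in LApc and 0.0994 [0.0429 to 0.196] in LApcL. In WT 120 of 1208 barcodes were positive at 10000 UMIs (9.93%), and the top 10% of barcodes held 97.9% of its UMIs. In LApc 57 UMIs came from 5 barcodes, and 44 of them from a single barcode, which held 28078 UMIs in all and also carried 6 Ascl2, 4 Lgr5 and 8 Axin2 UMIs, 5 UMIs from the enterocyte list and 0 Fabp1 UMIs. In LApcL 8 UMIs came from 3 barcodes, 6 of them from 1. Without the barcode with most UMIs the levels were 0.143 and 0.0249 CPM. Olfm4 was below 5 CPM in both and is not counted between them. Against marker-low WT, at 266 CPM [257 to 275], LApc differed by a log2 ratio of −7.36 [−7.50 to −7.20].

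Mex3a and Igfbp4 were also higher in LApc than in WT and highest in LApcL, with smaller folds against WT than Ascl2. Mex3a (chr3:88532395-88541396) measured 2.86 CPM [2.41 to 3.38] in WT, 34.6 [33.4 to 35.8] in LApc and 44.7 [43.3 to 46.2] in LApcL. Igfbp4 (chr11:99041244-99054392) measured 5.32 CPM [4.69 to 6.00], 95.3 [93.3 to 97.4] and 171 [169 to 174], with positive shares of 5.05%, 40.3% and 69.4%. Both stayed above marker-low WT, where LApc was 4.14-fold higher for Mex3a [3.40 to 5.09] and 6.21-fold for Igfbp4 [5.38 to 7.22]. Igfbp4 is also a gene of endothelial cells, and a large set of shallow barcodes with endothelial markers was shared by all 3 libraries and left out here. The 5 endothelial markers summed to 1.37 CPM in the kept WT barcodes, 13.9 in LApc and 1.63 in LApcL, against 3168, 3175 and 3166 CPM in the shared barcodes, where Igfbp4 itself stood at 489, 549 and 512 CPM.

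Smoc2, Slc12a2, Prom1 and Rgmb were already plain in WT. Smoc2 (chr17:14279506-14404790) measured 66.8 CPM [64.5 to 69.1] in WT, 233 [230 to 236] in LApc and 390 [386 to 394] in LApcL. Slc12a2 measured 235 [231 to 239], 320 [317 to 324] and 612 [606 to 617], and 95.6% of LApcL barcodes were positive against 68.1% in LApc and 59.3% in WT. Prom1 (chr5:43993620-44102032) measured 49.1 CPM [47.2 to 51.1], 75.3 [73.5 to 77.1] and 122 [120 to 125]. In these 3 genes WT was lowest and LApcL highest, and no intervals overlapped. Rgmb (chr17:15803188-15831039) alone was lowest in LApc, at 13.4 CPM [12.7 to 14.2], against 20.9 [19.6 to 22.2] in WT and 23.8 [22.8 to 24.9] in LApcL. LApcL was 1.77-fold above LApc for Rgmb [1.65 to 1.90] and 1.14-fold above WT [1.06 to 1.23], but scaling by median-of-ratios factors turned the second difference to a log2 ratio of −0.11.

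Set against marker-low WT, the markers divided. For LApc, 4 of 10 were at least 2-fold higher (Ascl2, Tnfrsf19, Igfbp4 and Mex3a) where 16.0% of all 10726 genes were, and 2 were at least 2-fold lower (Olfm4 and Rgmb) where 7.78% were. The log2 ratios of Lgr5, Prom1 and Slc12a2 were −0.25 [−0.38 to −0.11], −0.057 [−0.15 to 0.041] and −0.78 [−0.81 to −0.74], each positive against all WT barcodes. That of Smoc2 was 0.45 [0.38 to 0.51]. The median of the 10 was 0.20, near the 0.24 of all genes. For LApcL 6 of 10 were at least 2-fold higher (background 14.7%), with Lgr5 and Smoc2 added to the 4, and 1 was lower (7.77%). Against marker-low WT the LApcL folds were 28.7 [21.2 to 39.8] for Ascl2, 31.4 [20.9 to 49.6] for Tnfrsf19, 5.34 [4.39 to 6.57] for Mex3a, 11.2 [9.67 to 13.0] for Igfbp4 and 1.56 [1.46 to 1.67] for Prom1. The median was 1.14 against 0.28, and Slc12a2 and Rgmb lay at 0.15 and −0.89.

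**Figure D2:**
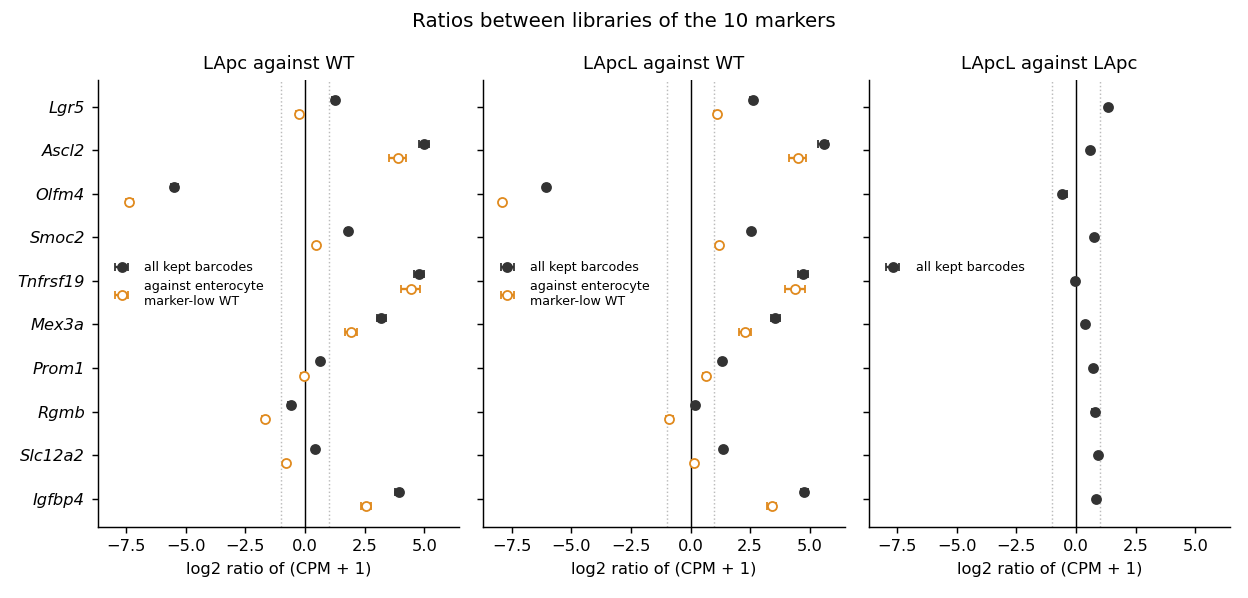
Log2 ratios of CPM + 1 with 95% counting intervals for the 10 markers in LApc against WT, LApcL against WT and LApcL against LApc. Filled points use all kept barcodes, open points use marker-low WT, and dotted lines mark 2-fold. Lgr5 in LApc moves from 1.26 to −0.25 when marker-low WT is the reference, while Ascl2 moves from 4.99 to 3.89.

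Within WT the markers were ordered along the share of enterocyte UMIs. From barcodes with under 0.1% enterocyte UMIs (84 barcodes) to those with 5% or more (148 barcodes), Lgr5 went from 63.7 to 0.765 CPM, Olfm4 from 655 to 0.153, Smoc2 from 192 to 4.44 and Slc12a2 from 646 to 58.7. Igfbp4 went from 32.0 to 0.612 CPM and Ascl2 from 7.92 to 0.306. The decline was steady over the 5 ranges for Lgr5, Smoc2, Slc12a2, Prom1, Igfbp4 and Mex3a. It was not for Olfm4, at 3.80 CPM between 0.5% and 2% but 16.8 CPM between 2% and 5%, where 215 UMIs came with a positive share of 2.01% of 299 barcodes. Its positive share went down over the ranges, from 36.9% and 29.0% to 2.35%, 2.01% and 0%. Tnfrsf19 stood at 4.82 CPM in the first range and between 0.970 and 1.38 CPM in the others. Prom1 went from 88.1 to 20.8 CPM, and Rgmb from 58.5 to 10.1 with its lowest level, 9.62, in the range from 2% to 5%.

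**Figure D3:**
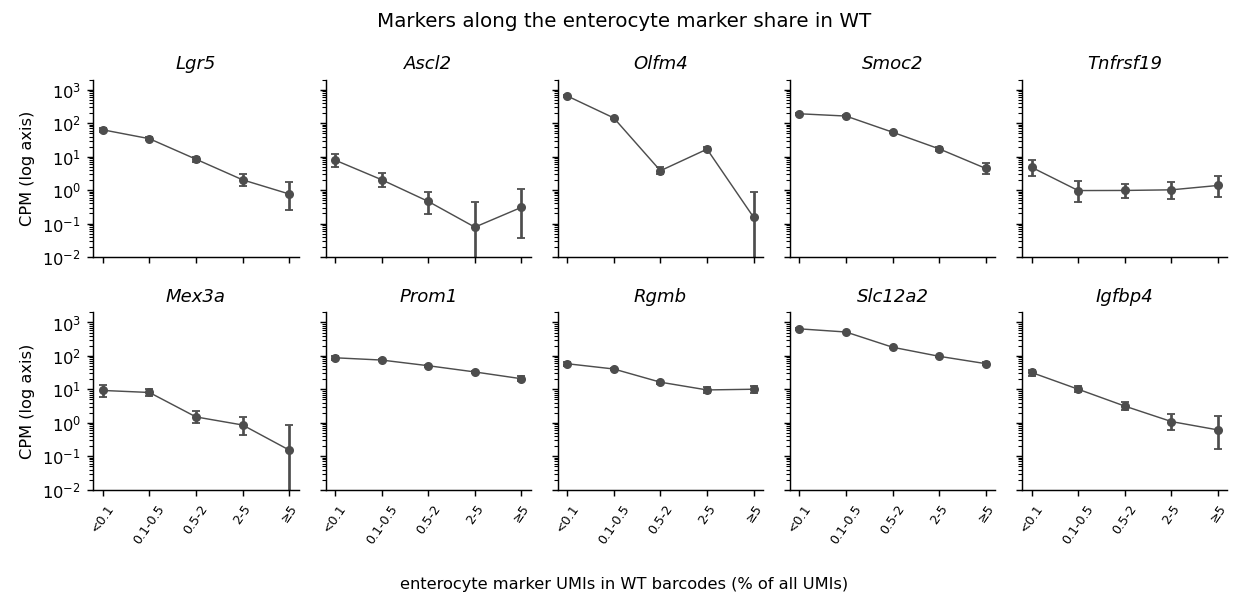
CPM of each marker (log axis, 95% Poisson intervals) in WT barcodes grouped by the percent of UMIs from 10 enterocyte markers; intervals that meet the lower edge run on below it. Lgr5 runs from 63.7 CPM under 0.1% to 0.765 CPM at 5% or more, and Tnfrsf19 stays at or below 4.82 CPM throughout.

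The number of markers found in 1 cell follows from the single shares, since its mean is their sum. At 10000 UMIs a WT barcode held 1.80 of the 10 markers on average (SD 1.49 over barcodes), an LApc barcode 3.58 (SD 1.63) and an LApcL barcode 5.18 (SD 1.46). Marker-low WT held 3.19. At least 5 markers were found in 5.30% of WT barcodes [4.10 to 6.72], 17.3% of marker-low WT barcodes [13.4 to 21.7], 28.0% of LApc barcodes [26.1 to 29.9] and 68.6% of LApcL barcodes [66.5 to 70.7]. Independent detection at the same single shares would give 0.791%, 13.2%, 24.6% and 70.0%. No marker was found in 20.4% of WT, 1.43% of LApc and 0.0518% of LApcL barcodes. No barcode held all 10, and 92 LApcL barcodes held 8 or more against 22 in LApc and 1 in WT.

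**Figure D4:**
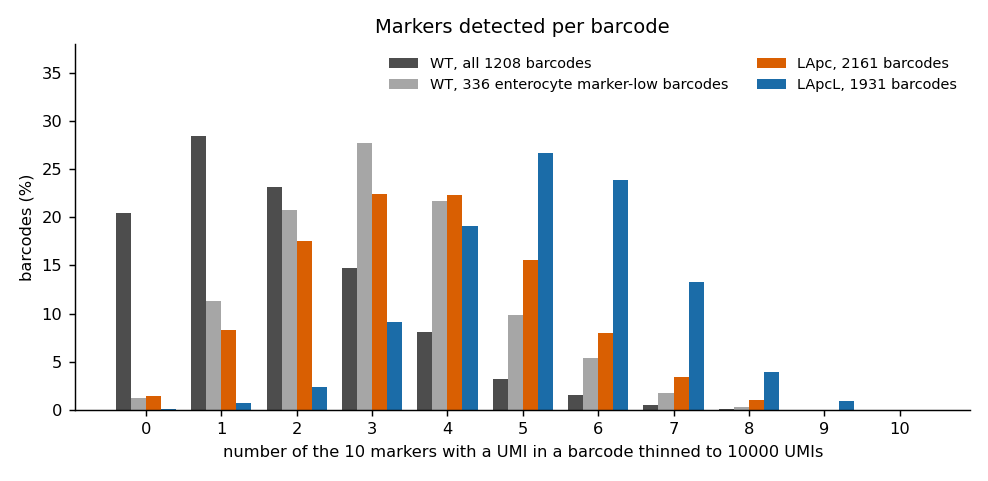
Percent of barcodes by the number of the 10 markers with a UMI after thinning to 10000 UMIs, for all WT, marker-low WT, LApc and LApcL. The distributions center on 1.80, 3.19, 3.58 and 5.18 markers on average.

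Over all WT barcodes, pairs of markers met in the same cells more often than their single shares give. For each pair the barcodes positive for both were divided by the number given by the product of the single shares, for pairs where that number was at least 10. The median ratio was 1.49 over 22 pairs in WT, 1.09 over 36 pairs in LApc and 1.02 over 36 pairs in LApcL, and it was 1.06 over 24 pairs in marker-low WT. These pair sets differ, and over the 17 pairs counted in all 3 libraries the medians were 1.44, 1.10 and 1.01. The ratio cannot exceed 1 over the larger single share, a limit whose median over the 17 pairs was 2.62 in WT, 1.52 in LApc and 1.16 in LApcL, so the libraries' ratios cannot be compared as strength of association. In WT Lgr5 and Olfm4 met in 36 barcodes where 11.6 were given, a ratio of 3.10 [2.17 to 4.29], but in marker-low WT the ratio was 1.39 [0.963 to 1.94], an interval that spans 1. Lgr5 and Rgmb had a ratio of 2.21 [1.62 to 2.93] in WT, 1.44 [1.14 to 1.79] in LApc, the highest there, and 1.18 [1.04 to 1.34] in LApcL, again the highest. In marker-low WT it was 1.37 [0.957 to 1.89]. Lgr5 and Ascl2 had ratios of 1.28 [1.11 to 1.47] in LApc and 1.02 [0.938 to 1.11] in LApcL. Ascl2 and Tnfrsf19 stood at 0.989 [0.884 to 1.10] in LApc, an interval that spans 1. Lgr5 and Mex3a had the lowest ratio in LApc, 0.851 [0.698 to 1.03].

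**Figure D5:**
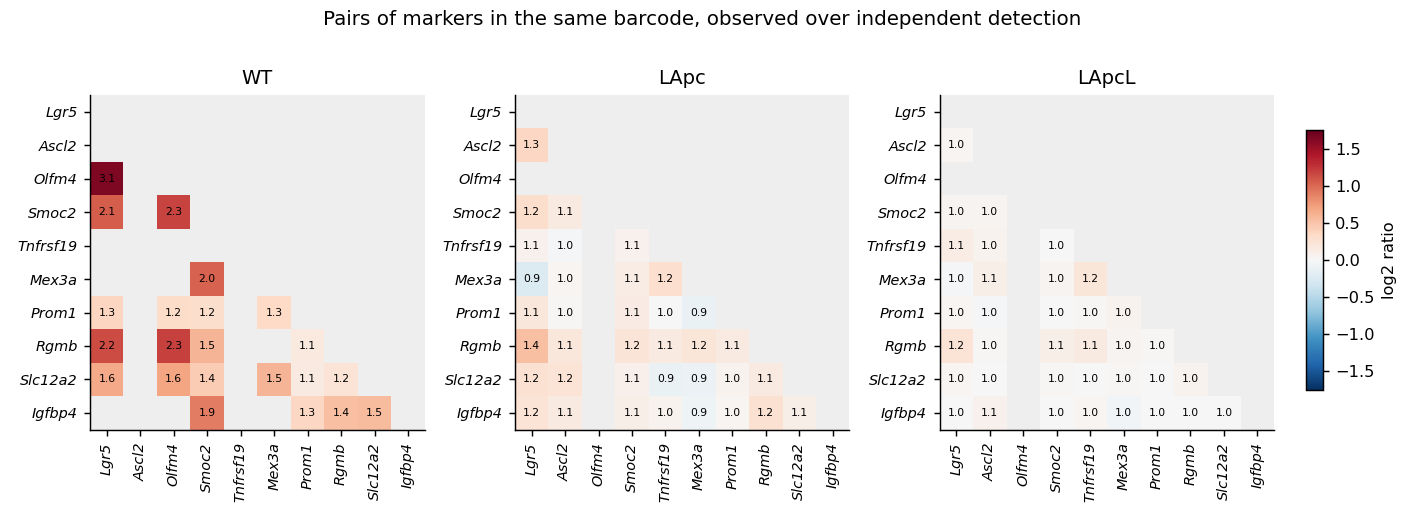
Observed over independent co-detection for each pair of markers in WT, LApc and LApcL, as numbers in the cells and as color on a log2 scale. Gray cells had fewer than 10 barcodes given by independence. The highest ratios are 3.10 in WT (all barcodes, Lgr5 and Olfm4; 1.39 in marker-low WT), 1.44 in LApc and 1.18 in LApcL, and the highest ratio possible differs between libraries.

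Some of the other markers, but not all, were more frequent in Lgr5-positive than in Lgr5-negative cells, by gene and library. Among 117 Lgr5-positive WT barcodes, 30.8% had Olfm4 [22.6 to 40.0], 73.5% Smoc2 [64.5 to 81.2] and 40.2% Rgmb [31.2 to 49.6], against 7.70%, 31.2% and 15.9% of the 1091 negative ones. Within marker-low WT the gaps were smaller, with Olfm4 in 43.0% [31.9 to 54.7] against 27.2% [21.9 to 33.1], and the intervals of Olfm4, Smoc2 and Rgmb overlapped. Among 462 Lgr5-positive LApc barcodes, 44.4% had Ascl2 [39.8 to 49.0] and 81.4% Smoc2 [77.5 to 84.8], against 31.9% and 61.3%. In LApcL Ascl2 was found in 53.1% of the 1013 Lgr5-positive and 50.7% [47.4 to 53.9] of the 918 negative barcodes. The gap was larger there for Rgmb, at 24.2% [21.6 to 26.9] against 16.4% [14.1 to 19.0], and for Tnfrsf19, at 44.6% [41.5 to 47.7] against 37.3% [34.1 to 40.5], and present for Smoc2, at 88.5% against 83.1%, and Slc12a2, at 97.9% against 93.0%. In LApc the corresponding shares were 16.9% against 10.4% for Rgmb and 45.7% against 42.8% for Tnfrsf19. Mex3a was less frequent in Lgr5-positive LApc barcodes, at 23.2% [19.4 to 27.3] against 28.3% [26.2 to 30.5], with overlapping intervals. In LApcL Mex3a and Igfbp4 hardly differed, at 32.9% against 33.8% and 69.2% against 69.6%. Nor did Prom1 in marker-low WT, at 51.9% against 51.8%. Median depths of the positive and negative barcodes were 37501 and 38195 UMIs in WT, 33770 and 34591 in LApc, and 31265 and 34678 in LApcL.

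The markers were unevenly spread over the other cell states. After thinning to 10000 UMIs, 290 LApc barcodes (13.4%) had a UMI of Npy, the gene of neuropeptide Y, against 0 in WT and 1 in LApcL. In them Ascl2 stood at 26.9 CPM [24.1 to 30.1] against 70.8 [69.0 to 72.7] in the other LApc barcodes and Slc12a2 at 163 [156 to 170] against 344 [340 to 348], whereas Prom1 stood at 109 [103 to 115] against 70.2 [68.4 to 72.1]. Tnfrsf19 and Igfbp4 were 69.7 against 60.4 and 107 against 93.6 CPM. Barcodes with at least 0.5% of UMIs from Paneth markers numbered 11 in WT, 70 in LApc and 90 in LApcL. In LApcL these held 31.4 CPM of Ascl2 [25.1 to 38.8] and 67.6 of Lgr5 [58.2 to 78.2], below the whole library, but 746 of Slc12a2 [714 to 779] and 39.2 of Rgmb [32.1 to 47.4], above it. In LApc the Paneth marker-high barcodes had 17.4 CPM of Ascl2 [12.3 to 24.0], below the library, but Slc12a2 was below it too, at 270 [248 to 293], and Lgr5 stood at 36.7 [29.0 to 45.8] against 34.7. The 69 goblet marker-high LApcL barcodes were mostly the same barcodes, 65 of them being Paneth marker-high as well (29 of 32 in LApc), and had 20.9 CPM of Ascl2 [15.1 to 28.2] and 802 of Slc12a2 [763 to 841]. In LApc, Mki67-positive barcodes had more Ascl2, 89.4 CPM [86.0 to 92.9] against 53.6 [51.8 to 55.4], and less Tnfrsf19, 47.7 [45.2 to 50.3] against 68.3 [66.2 to 70.4]. In LApcL the gaps were 105 against 90.9 CPM for Ascl2 and 54.0 against 65.4 for Tnfrsf19. Depth moved with these classes, with medians of 48212 and 32191 UMIs in LApc and 41683 and 28816 in LApcL. From barcodes of 10000 to 20000 UMIs to those of 40000 or more, Ascl2 in LApc went from 40.6 to 69.6 CPM and Tnfrsf19 from 83.9 to 52.6, and the part of depth was not tested.

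Levels and shares were also read in the barcodes shared by all 3 libraries, which carry endothelial markers. At 1000 UMIs these had Lgr5 in at most 0.0883%, Ascl2 in at most 0.132% and Smoc2 in at most 0.177% of barcodes. The kept barcodes at that depth had Lgr5 in 1.16%, 3.38% and 8.44% of WT, LApc and LApcL, and Ascl2 in 5.83% of LApc and 8.29% of LApcL. Median depths before thinning were 2394, 1896 and 1980 UMIs in the shared barcodes. At that depth the Tnfrsf19 shares in WT overlapped, at 0.166% [0.0201 to 0.597] against 0.0714% [0.00865 to 0.258], and no WT barcode of either kind had Ascl2, so neither share tells the cells apart. By level the shared WT barcodes held 0 Ascl2 UMIs and 0.257 CPM of Tnfrsf19, against 1.08 and 1.27 CPM in the kept WT barcodes. Mex3a, Rgmb and Igfbp4 were higher in the shared than in the kept WT barcodes, at 9.53 against 2.86, 27.4 against 20.9 and 489 against 5.32 CPM, so these cells give no background for them.

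Other genes of the pathway were mixed from LApc to LApcL. Of 16 Wnt target and feedback genes, 7 were higher in LApcL, where 56.5% of all genes were, and 9 lower, with a median log2 ratio of −0.41 against 0.042 over all genes. Of the 9, 4 were at least 2-fold lower, where 3.75% of all genes were. Lowest were Notum, a secreted enzyme that inactivates Wnt ligands, at 73.3 against 302 CPM (−2.03 [−2.07 to −1.99]), and Nkd1, a feedback inhibitor, at 179 against 527 CPM (−1.56 [−1.58 to −1.53]). Highest were the receptor Ephb2 at 0.57 [0.51 to 0.64] and the adhesion receptor Cd44 at 0.42 [0.36 to 0.47]. Against all WT barcodes all 16 were higher in LApc, as were 71.9% of all genes. Of 15 other crypt base genes 13 passed 5 CPM, with 6 higher, 7 lower and a median of −0.086, against the same 56.5% and 0.042. Clca3b was highest at 2.08 [2.01 to 2.16] and Pdgfa, a platelet-derived growth factor chain, next at 1.07 [1.03 to 1.10], while Nrn1 was lowest at −3.60 [−3.71 to −3.45], followed by Phlda1 at −0.36 [−0.38 to −0.34]. All 6 genes that passed from the reserve stem cell list had ratios above 0 (median 0.45), where 56.5% of all genes did. Only Ly6a, at 1.67 [1.64 to 1.69], and Clu, at 1.20 [1.16 to 1.23], were at least 2-fold higher, where 1.49% of all genes were. Lrig1 stood at 0.74 [0.69 to 0.79], Krt19 at 0.16 [0.14 to 0.17] and Bmi1 at 0.11 [0.0094 to 0.20], while the interval of Hopx, at 0.014 [−0.0069 to 0.034], spans 0. All 8 genes of dividing cells had ratios above 0 (median 0.65), against the same 56.5% of all genes, from Pcna at 0.19 and Mcm5 at 0.52 to Top2a at 0.73 and Mki67 at 0.88.

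The genes whose UMIs varied most like Lgr5 across barcodes were led by 2 of the other markers. Pearson's r of log2 thinned UMIs + 1 was 0.34, 0.31 and 0.25 for Slc12a2 in WT (1208 barcodes), LApc (2161) and LApcL (1931), and 0.37, 0.24 and 0.15 for Smoc2. Rgcc, Lgals2 and Cdca7 came next, with a lowest r of 0.15, 0.13 and 0.13. Among the other markers Rgmb had a lowest r of 0.12, Prom1 of 0.052 and Igfbp4 of -0.018 over the 3 libraries, and Olfm4 had 0.29 in WT. Rgcc was followed in WT and LApcL alone, and Ascl2 (0.12 and 0.0078), Tnfrsf19 (0.046 and 0.10) and Mex3a (-0.040 and 0.028) in LApc and LApcL alone. For Ascl2 the nearest genes in LApc and LApcL were Ptma (0.33 and 0.24), Ppia (0.25 and 0.21), the intestinal transcription factor Cdx2 (0.30 and 0.19), Id2 (0.18 in both) and Hmgn1 (0.22 and 0.17). Olfm4 could be followed in WT alone, where Itln1 (0.50), Clca3b (0.49), Ifitm3 (0.44), Slc12a2 (0.42) and Smoc2 (0.41) were nearest, a list made for 1 library after its values were seen. These values describe sparse counts of cells that share a library and a depth. In WT they were taken over all barcodes, 72.2% of them enterocyte marker-high, and r within marker-low WT was not computed. Co-detection of Lgr5 with Smoc2 and Slc12a2 had ratios of 2.08 and 1.59 in all WT barcodes. In marker-low WT these were 1.16 [0.887 to 1.48] and 1.13 [0.895 to 1.41].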

How the data were processed

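The data were droplet-based 3′ single-cell RNA-seq of 3 libraries, 1 per genotype. The authors deposited UMI counts per gene and barcode, not normalized; per the file headers they were made with Cell Ranger 6.0.1, whereas the submitters' processing notes name Cell Ranger 2.1.1 and the build mm10 (GRCm38). Deposited totals were 87185429 (WT), 118867221 (LApc) and 112057783 (LApcL) UMIs, of which the kept barcodes held 48895147, 90864428 and 80504226. Barcodes with at least 10000 UMIs were dropped when found in another library (10, 11 and 7) or when over 20% mitochondrial (427, 295 and 259). Counts were summed over barcodes and scaled to CPM with exact Poisson intervals. Log2 ratios used CPM + 1, which understates changes of low genes, and exact conditional binomial intervals. Shares were taken after thinning to 10000 UMIs, with Clopper-Pearson intervals. Levels compare the same gene between libraries, never different genes. Doublets were not removed. Scrublet (scanpy 1.11.5) called 9, 3 and 7 barcodes, and whether these calls were too few was not tested. Removal of the highest scores at 0.8% per 1000 deposited barcodes (110, 185 and 186 barcodes) was an alternative. The interval and thinning steps were tested on simulated data. The 10 members, the gene lists and the marker lists were chosen with earlier results of these data known. Named genes were the 10 members, the 5 genes most like Lgr5, Ascl2 and Olfm4, the 2 highest and 2 lowest of each list in LApcL against LApc, the targeted genes, Npy and class markers. Lrig1 and Krt19 were added so that each reserve stem cell gene that passed is given. Python 3.11.15, numpy 2.4.6 and scipy 1.17.1 were used.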

Additional observations from a re-analysis of the deposited data

Results flagged for a closer look

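Some markers gave signal in barcodes that the comparisons between genotypes left out. Among barcodes found in all 3 libraries, which carry endothelial markers, Igfbp4 was detected in 22.4% of 2802 WT barcodes [20.9 to 24.0], 25.8% of 2266 LApc barcodes [24.0 to 27.6] and 24.1% of 2387 LApcL barcodes [22.4 to 25.9] at 1000 UMIs. The kept epithelial barcodes at the same depth had it in 0.414%, 7.91% and 13.8%. Rgmb was detected in 3.00% of the shared LApc barcodes [2.34 to 3.79] against 1.02% of the kept ones [0.639 to 1.54]. The intervals of the Rgmb shares overlapped in WT, at 3.00% of the shared barcodes against 2.65% of the kept ones, and in LApcL, at 2.18% against 2.38%. The 3 Igfbp4 shares and the LApc share of Rgmb were singled out because over 3 shared barcodes were positive and their interval lay wholly above that of the kept barcodes at the same depth.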

How the results depend on the processing

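Of 390 values of single markers under the alternatives, 385 kept their direction, but part of these could not change it. The choice of pseudocount cannot turn a ratio. The marker-low setting leaves LApcL against LApc as it was, and leaving out Npy-positive LApc barcodes does so for LApcL against WT. The count is therefore not one of independent checks. With WT limited to marker-low barcodes, LApc against WT turned to a log2 ratio of -0.25 for Lgr5, -0.057 for Prom1 and -0.78 for Slc12a2, and LApcL against WT to -0.89 for Rgmb. Median-of-ratios factors, which differ from the WT factor by 0.27 (LApc) and 0.30 (LApcL) on the log2 scale, turned the last to -0.11. The median for LApc against WT (1.52) became 1.12 with a 10% mitochondrial limit, 0.20 with marker-low WT, 1.26 with those factors and 1.28 with a pseudocount of 10 CPM. That for LApcL against LApc (0.72) became 0.58 with the pseudocount of 10 CPM. That for LApcL against WT (2.57) became 2.69 without the top 1% of all deposited barcodes by genes detected (1095, 2054 and 1813 barcodes remaining), 2.16 with the 10% limit, 1.14 with marker-low WT, 2.65 with equal weight per barcode, 2.28 with median-of-ratios factors and 2.08 with the pseudocount of 10 CPM. Markers at least 2-fold higher in LApc against WT numbered 5 in place of 6 with the 10% limit, where Lgr5 had 0.90 and Slc12a2 0.028, with median-of-ratios factors and with the pseudocount of 10 CPM, and 4 with marker-low WT. Markers lower in LApc against WT numbered 2 in place of 1 at 1.5-fold or with marker-low WT. Those higher in LApcL against LApc numbered 2 in place of 1 under the 10% limit, without the top 1% or with equal weight, 7 at 1.5-fold and 0 at 3-fold. Mean markers per WT barcode (1.80) were 2.06 (10% limit), 1.70 (no mitochondrial limit), 3.19 (marker-low), 1.18 (thinned to 5000), 3.16 (not thinned) and 0.820 (2 UMIs needed). In LApc (3.58) they were 3.50 (10% limit), 3.66 (barcodes with any Npy UMI before thinning left out, 1578 remaining), 2.46, 5.79 and 1.82 under the last 3 settings, and in LApcL (5.18) 3.78, 7.18 and 3.17, with 5.25 from 20000 UMIs and 5.11 without a mitochondrial limit. The WT co-detection median (1.49) was 1.06 in marker-low WT and 1.95 with 2 UMIs needed. Apart from the limits built into a setting, the cause was not tested. No shares were computed from 5000 UMIs, since such barcodes cannot be thinned to 10000. No paired analysis was possible because each genotype had 1 library. Depth limits the WT values of Ascl2 and Tnfrsf19, at 53 and 62 UMIs, and Olfm4 in LApcL, at 8.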
